A study of Mus musculus with 2 samples.

Results

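The genes described here encode the AP-1 transcription factors, the other immediate early gene products and the proteins that restrain the MAP kinases. They were chosen by symbol: all Dusp phosphatases, the Sprouty and Spred genes, Klf2 to Klf9 and 30 named genes of the AP-1, Maf, Egr, Nr4a, Ier, Plk and Gadd45 families with Srf, Myc, Btg2, Atf3, Batf, Batf3 and Map3k8. The count table lists 19674 genes. Of these, 67 matched, and 61 held at least 50 counts summed over both libraries. These 61 are called measured. The cells were fibroblasts from the skin of mice, labelled MDFB and wild type, and are recorded as a cell line. One culture was given vehicle and the other IL-17A, an inflammatory cytokine. Both were entered here as batch 1, with only the treatment label noted as source. The labels gave no dose, no length of treatment and no age. Each group was 1 library of bulk RNA sequencing, so no difference below has a replicate check or a p-value. All results describe these 2 libraries, from 1 cell line.

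AP-1 is a pair of bZIP proteins, usually one of the Fos family with one of the Jun family, that binds DNA and controls genes for matrix proteases, cytokines and growth. Immediate early genes are those that growth factors, stress or cytokines switch on without new protein synthesis, and many are transient. The signal reaches them through the MAP kinases ERK, JNK and p38, which the IL-17 receptor also activates in fibroblasts. Several of the induced products, among them Dusp phosphatases, Sprouty and Spred proteins, then act back on the kinases.

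The vehicle library held 24427027 counts and the IL-17A library 23559416. Levels are CPM, counts relative to the TMM-scaled library size, and ratios are IL-17A over vehicle. Intervals are exact 95% Clopper-Pearson intervals of the share of a gene's counts, which cover counting error only. A gene is called higher or lower from 2-fold, a rule of size. Among the 13534 measured genes, 5.19% passed this limit upward and 3.69% downward, and the median log2 ratio was 0.00. In bulk RNA, fewer cells of a type and less RNA per cell cannot be told apart. Of the fibroblast markers, Col1a1 held 590781 and 348690 counts, and the 10 listed genes, all measured, summed to 55966 and 38491 CPM. Of them, 1 passed 2-fold upward and 1 downward. All 8 myeloid markers were measured, summing to 203 CPM with vehicle and 277 with IL-17A, mostly Lyz2 with 3836 and 5227 counts. Their leukocyte marker Ptprc held 87 and 88 counts. The 5 mural cell markers summed to 156 and 54.8 CPM, mostly Cspg4 with 2908 and 1070 counts, and all 4 that were measured were at least 2-fold lower. The 5 endothelial markers summed to 5.40 and 5.21 CPM, with Cdh5 at 33 and 47 counts and Tek at 49 and 18. The 6 keratinocyte markers summed to 2.48 and 3.0 CPM, with Krt10 at 28 and 27 counts and Krt1 at 0 in both libraries. The 6 melanocyte and Schwann cell markers summed to 11.0 and 12.3 CPM, with Sox10 at 145 and 129 counts. The part of these cells in the results that follow was not tested.

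With IL-17A, 11 of the 61 measured genes (18.0%) stood above vehicle by 2-fold or more, against 5.19% of all genes. Another 4 (6.56%) stood below it by as much, against 3.69%, and the remaining 46 differed by less. Those above were the AP-1 genes Junb, Fosl1 and Batf, the small Maf gene Maff, Egr2, Ier3, the kinase Map3k8, the phosphatases Dusp1, Dusp6 and Dusp10, and Spry4. Those below were Klf4, Egr3, Dusp5 and Dusp14. Ratios were modest: the highest, Batf, was 3.85-fold, and 37 genes lay within 1.5-fold. The median log2 ratio was 0.22, and 41 genes were above 0 and 20 below. Under scaling by total counts 37 were above 0, with a median of 0.15. The counting interval lay wholly above 0 for 34 of the 61 and wholly below 0 for 11, against 28.7% and 26.5% of all measured genes. The minimum weighs on the thinnest genes. Batf reached 50 counts only with IL-17A, Dusp5 and Fosb only with vehicle, and Egr3 and Nr4a3 in neither library alone. With at least 50 counts in each library, an alternative chosen after seeing the data, 10 of 56 (17.9%) were higher, against 3.90% of all genes under that rule, and 2 (3.57%) lower, against 2.17%. At a 3-fold limit the members stood close to all genes, with 2 (3.28%) higher against 2.51% and 1 (1.64%) lower against 1.62%. Just inside the minimum stood Egr3 with 64 summed counts and Nr4a3 with 68, and just outside it Dusp15 with 14 and Dusp27 with 10. The others under it were Dusp2 with 5 and 3 counts, Batf3 with 3 and 2, Dusp13 with 0 and 3, and Dusp26 with 0 in both.

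**Figure D1:**
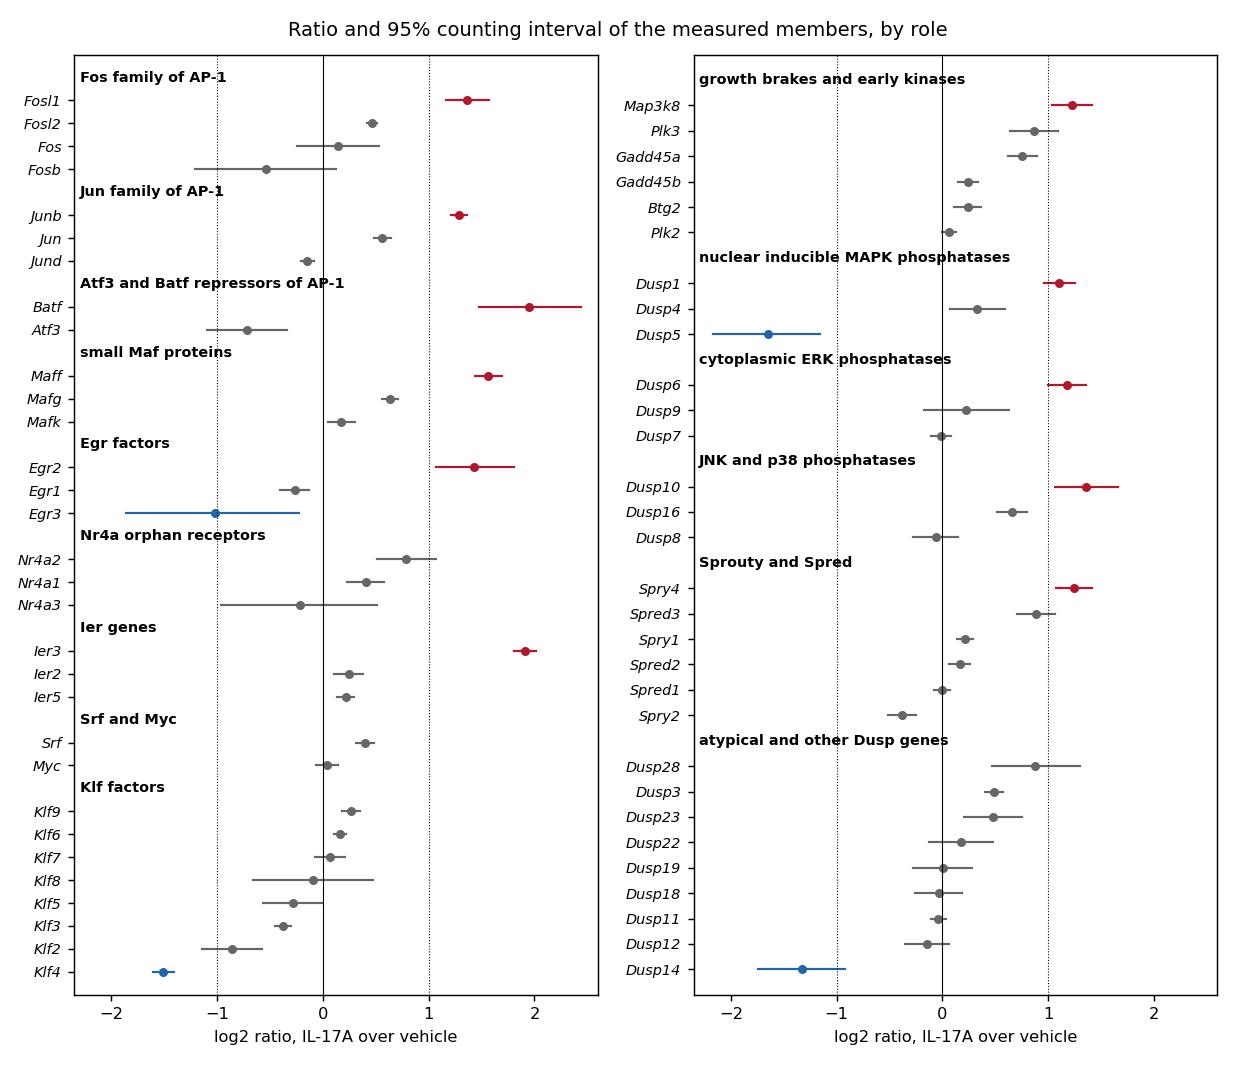
Log2 ratio of IL-17A over vehicle (horizontal axis) for each of the 61 measured genes, grouped by role, with 1 library per group. Points are ratios, bars are 95% counting intervals, dotted lines mark 2-fold, red is at least 2-fold higher and blue at least 2-fold lower. Of the 61 genes, 15 lie past 2-fold, 11 to the right and 4 to the left.

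**Figure D2:**
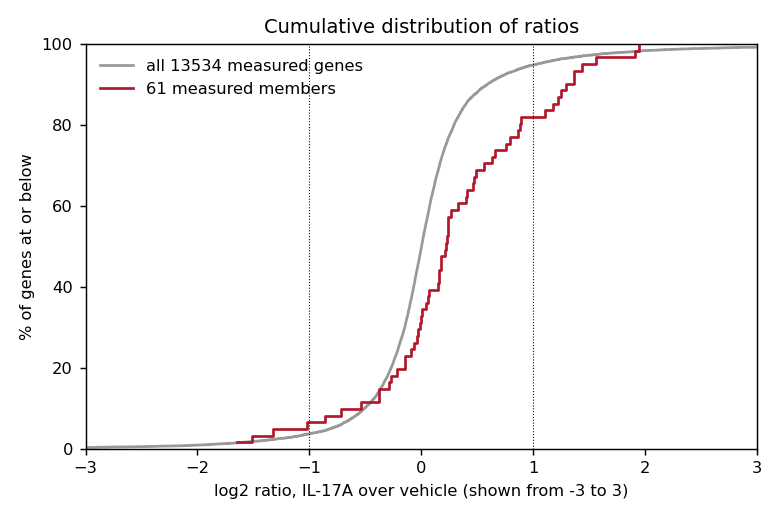
Cumulative share of genes (vertical axis, percent) at or below a log2 ratio of IL-17A over vehicle (horizontal axis), for all 13534 measured genes and the 61 members. Dotted lines mark 2-fold. The line of the members lies to the right of the other over most of its upper part, with medians of 0.22 and 0.00.

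The promoters of 5 of these 15 genes are shown because they hold short motifs of factors in the same families or, for Ier3, of NF-kB. Sequences are from RefSeq on GRCm38.p6, the assembly also called mm10, and 50 of the 61 genes had an entry. Fosl1, Spry4, Map3k8, Egr1, Egr3, Ier2, Myc, Klf5, Dusp4, Dusp9 and Dusp19 had none. Each line gives 150 bases, 5′ to 3′ on the gene's strand, from before a RefSeq transcription start and outside all GENCODE exons of the gene. The RefSeq spans of Maff and Egr2 begin further upstream, so these stretches lie inside them. The Dusp5 stretch lies within the exon of AC137853.2, an antisense gene. Capitals mark a kB site, the NF-kB motif, in Ier3, an Egr site and a CRE in Maff, a CRE in Dusp1, and the Srf motif called the CArG box in Egr2 and Dusp5, where 2 boxes lie end to end.
Ier3, chr17:35821534-35821683, plus strand: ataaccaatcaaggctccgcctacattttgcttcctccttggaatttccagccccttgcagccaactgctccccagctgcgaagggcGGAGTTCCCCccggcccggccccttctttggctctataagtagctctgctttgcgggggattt
Maff, chr15:79347370-79347519, plus strand: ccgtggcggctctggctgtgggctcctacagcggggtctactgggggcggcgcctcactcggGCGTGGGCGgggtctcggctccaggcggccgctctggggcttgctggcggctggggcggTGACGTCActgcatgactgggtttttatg
Dusp1, chr17:26508520-26508669, minus strand: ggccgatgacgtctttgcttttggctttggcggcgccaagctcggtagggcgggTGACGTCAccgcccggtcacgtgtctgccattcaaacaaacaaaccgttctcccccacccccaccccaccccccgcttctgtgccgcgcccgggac
Egr2, chr10:67537719-67537868, plus strand: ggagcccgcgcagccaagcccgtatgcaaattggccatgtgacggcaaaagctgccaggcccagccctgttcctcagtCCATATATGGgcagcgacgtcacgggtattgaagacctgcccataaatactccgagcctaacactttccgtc
Dusp5, chr19:53528959-53529108, plus strand: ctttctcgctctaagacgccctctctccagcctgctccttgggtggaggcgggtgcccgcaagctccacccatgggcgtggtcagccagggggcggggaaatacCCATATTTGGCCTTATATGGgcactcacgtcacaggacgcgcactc

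Each motif was searched on both strands of all promoter windows, which run from 250 bases before to 50 after an annotated start. The CArG box was found in windows of 4 genes, Dusp5, Egr2, Klf8 and Srf. That is 8% of the 50 genes, against 1.61% of 9812 measured genes with an entry. The 4 genes went both ways, with log2 ratios of -1.65, 1.43, -0.09 and 0.40. The CRE, TGACGTCA, was in the windows of 5 genes (10%), Btg2, Dusp1, Dusp8, Maff and Plk2, against 3.68% of measured genes. The kB site was in those of 8 genes (16%), a share near the 12.5% of measured genes. They were Dusp22, Egr2, Fos, Fosb, Fosl2, Ier3, Maff and Nr4a1, of which 3 were higher, 0 lower and 5 within 2-fold. The Egr site, GCGTGGGCG, was in those of Maff alone, against 1.42%. The AP-1 motif TRE, TGACTCA or on the other strand TGAGTCA, was in none, against 4.51%, which says only that these letters are not in these windows. A match is a description of the sequence and not of binding.

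Within the Fos family, whose proteins pair with Jun proteins, Fosl1 was the gene past 2-fold. Fosl1, which encodes Fra-1, held 289 counts with vehicle and 685 with IL-17A, or 11.6 and 29.8 CPM, a ratio of 2.58 (95% counting interval 2.24 to 2.97). On chromosome 19 it spans 5447698 to 5455938, and Ccdc85b on the opposite strand overlaps 62.4% of its exon length in GENCODE. Ccdc85b held 573 and 567 counts, a log2 ratio of 0.10. The strand setting of the counting is not given in the sources used here, so the Fosl1 counts are uncertain. Fosl2, which encodes Fra-2, held 6236 and 7908 counts, a log2 ratio of 0.46 (interval 0.41 to 0.51). Fos itself held 113 and 115 counts, a log2 ratio of 0.15 with an interval of -0.24 to 0.53 that spans 0. Fosb held 52 and 33 counts, a log2 ratio of -0.54 (interval -1.21 to 0.12). Fos and Fosb, the classic immediate early members of the family, were the least counted in both libraries. Per kilobase of exon, Fosl2 stood highest at 38.1 CPM per kb with vehicle and 52.6 with IL-17A, and Fosl1 followed at 6.20 and 16. Fos stood at 2.14 and 2.37 and Fosb at 0.55 and 0.38. Fosl1 made up 4.32% (95% exact binomial interval 3.85 to 4.83) of the family's counts with vehicle and 7.84% (interval 7.28 to 8.42) with IL-17A.

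In the Jun family, Junb was the gene past 2-fold. Junb, which often opposes Jun on its targets, held 1925 and 4326 counts, or 77.0 and 188 CPM, a ratio of 2.44 (95% counting interval 2.31 to 2.58). The gene spans 84976909 to 84978748 on chromosome 8. Jun held 2366 and 3214 counts, a log2 ratio of 0.56 (interval 0.48 to 0.64). Jund, the most steadily expressed member in many cells, held 4472 and 3714 counts, a log2 ratio of -0.15 (interval -0.21 to -0.08). The makeup of the family's counts differed between the libraries. Junb took 22.0% (95% exact binomial interval 21.1 to 22.8) of them with vehicle and 38.4% (interval 37.5 to 39.3) with IL-17A, while Jund took 51.0% and 33.0% and Jun 27.0% and 28.6%. Per kilobase of exon, Jund led with vehicle at 107 CPM per kb, against 42.5 for Junb and 29.7 for Jun. With IL-17A, Junb stood at 104 CPM per kb, Jund at 96.8 and Jun at 43.8. An antisense gene, Gm11175, overlaps 52.6% of the exon length of Jund and held 33 counts in each library.

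**Figure D3:**
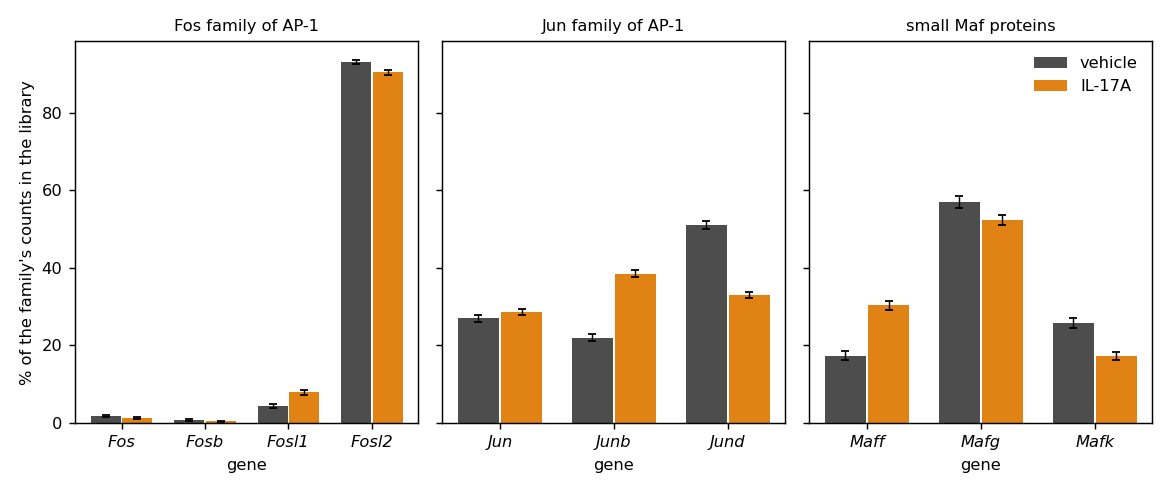
Share of a family's counts taken by each gene (vertical axis, percent) in the vehicle and the IL-17A library, for the Fos, Jun and small Maf genes. Bars are 1 library each and lines are exact 95% binomial intervals, which cover counting error only. Junb stands at 22.0% and 38.4%, Maff at 17.3% and 30.3%, and Fosl2 above 90% in both libraries.

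Batf and Atf3 encode small bZIP proteins that pair with Jun proteins or with each other's relatives and can block or redirect AP-1. Batf held 48 counts with vehicle and 170 with IL-17A, or 1.92 and 7.39 CPM, a ratio of 3.85 (95% counting interval 2.78 to 5.42), the highest of the measured members. On chromosome 12 it spans 85686720 to 85709087, and it is best known from lymphocytes and other leukocytes. None of the 8 myeloid markers reached 2-fold, as was true of 12332 of all 13534 measured genes. Of the 8, 6 were above 0, with Ptprc at 0.14 and Itgam, with 47 and 84 counts, at 0.96. Below 0 were Cd68, with 270 and 168 counts, at -0.56 and Adgre1, with 194 and 170, at -0.07. The part of myeloid cells in the Batf ratio was not tested. Atf3, a stress-induced factor, went the other way with 164 and 92 counts, a log2 ratio of -0.71 (interval -1.10 to -0.34).

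The small Maf proteins lack an activation domain and pair with the Cnc and Bach families on antioxidant response elements. Maff, on chromosome 15 at 79346621 to 79359078, held 697 and 1895 counts, or 27.9 and 82.4 CPM, a ratio of 2.95 (95% counting interval 2.71 to 3.23). Its promoter, shown above, holds the Egr site and the CRE. Mafg held 2293 and 3275 counts, a log2 ratio of 0.63 (interval 0.56 to 0.71). Mafk held 1039 and 1079, a log2 ratio of 0.17 (interval 0.05 to 0.30). All 3 were above 0. Maff took 17.3% (95% exact binomial interval 16.1 to 18.5) of the family's counts with vehicle and 30.3% (interval 29.2 to 31.5) with IL-17A. Their order per kilobase depended on the length used and is not given.

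The Egr genes, zinc finger factors that sit at the head of the immediate early response, went in different directions. Egr2, on chromosome 10 at 67534469 to 67542188, held 87 and 216 counts, or 3.48 and 9.39 CPM, a ratio of 2.70 (95% counting interval 2.09 to 3.50). Egr1, the most counted of the 3, held 987 and 754 counts, a log2 ratio of -0.27 (interval -0.41 to -0.13). Egr3, on chromosome 14 at 70077317 to 70082613, held 44 and 20 counts, or 1.76 and 0.87 CPM, 2.02-fold lower (95% counting interval 1.17 to 3.63). It was the member nearest the 2-fold limit, and with a prior count of 2 its log2 ratio was -0.95, inside the limit. Among the Nr4a genes, orphan nuclear receptors induced by many stimuli, none reached 2-fold, as was true of 12332 of all 13534 measured genes. Nr4a2 held 176 and 280 counts, a log2 ratio of 0.79, Nr4a1 484 and 589, a log2 ratio of 0.40, and Nr4a3 38 and 30, a log2 ratio of -0.22 with an interval that spans 0.

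Ier3, a stress-responsive gene linked to cell survival and to NF-kB and ERK signalling, had the highest ratio after Batf, at a far higher level. It held 1002 and 3469 counts, or 40.1 and 151 CPM, a ratio of 3.76 (95% counting interval 3.51 to 4.04), and lies on chromosome 17 at 35821713 to 35822911. Its relatives in name stayed close to 0, Ier2 at 0.24 with 839 and 913 counts and Ier5 at 0.22 with 2442 and 2610. Srf, the serum response factor that binds CArG boxes, held 2036 and 2466 counts, a log2 ratio of 0.40. Myc, a growth-promoting bHLH factor, held 1482 and 1400 counts, a log2 ratio of 0.04 with an interval of -0.07 to 0.14.

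Of the 8 Klf factors measured, 0 passed 2-fold upward, against 5.19% of all genes, and 1 (12.5%) downward, against 3.69%. Above 0 were 3 of the 8, and 2 under total-count scaling. Klf4, a zinc finger factor known for its part in cell identity and growth arrest, held 3507 and 1134 counts, or 140 and 49.3 CPM, 2.85-fold lower (95% counting interval 2.66 to 3.05). It spans 55527137 to 55532475 on chromosome 4 and has the most counts of the 4 lower genes. Klf2, its close relative, held 309 and 157 counts, a log2 ratio of -0.86 (interval -1.14 to -0.57). Klf3 held 3444 and 2432 counts, a log2 ratio of -0.38, and Klf5 253 and 191, a log2 ratio of -0.29. Klf8, Klf7, Klf6 and Klf9 stood between -0.09 and 0.26.

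Map3k8, also called Tpl2 or Cot, is the kinase that links NF-kB signalling to the ERK cascade, and it was the one gene of the growth brakes and early kinases past 2-fold. It held 327 and 702 counts, or 13.1 and 30.5 CPM, a ratio of 2.33 (95% counting interval 2.04 to 2.67). All 6 genes of this group were above 0, and 5 under total-count scaling, where Plk2 was the exception. The polo-like kinase gene Plk3 held 255 and 427 counts, a log2 ratio of 0.86, and Gadd45a, a growth arrest and stress gene, 696 and 1081, a log2 ratio of 0.76. Gadd45b and the antiproliferative gene Btg2 stood at 0.24 each, and Plk2, with 3853 and 3698 counts, at 0.06.

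The Dusp genes encode phosphatases, and those called MAP kinase phosphatases remove phosphate from ERK, JNK and p38 in the nucleus or cytoplasm. Of the 9 genes measured of the MAP kinase phosphatases alone, 3 were higher, against 5.19% of all genes, and 1 lower, against 3.69%. The atypical Dusp genes are given separately below. Dusp1, which acts mainly on p38 and JNK in the nucleus, held 583 and 1152 counts, or 23.3 and 50.1 CPM, a ratio of 2.15 (95% counting interval 1.94 to 2.38). It lies on chromosome 17 at 26505591 to 26508472. Dusp6, the cytoplasmic phosphatase for ERK, held 392 and 815 counts, or 15.7 and 35.4 CPM, a ratio of 2.26 (95% counting interval 2.0 to 2.56), on chromosome 10 at 99263231 to 99267489. Dusp10, which acts on p38 and JNK, held 136 and 321 counts, or 5.44 and 13.9 CPM, a ratio of 2.57 (95% counting interval 2.09 to 3.16), on chromosome 1 at 184034381 to 184075636. Together the 3 act on ERK, JNK and p38.

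Dusp5, the nuclear phosphatase for ERK, was the exception among them. It held 150 and 44 counts, or 6.0 and 1.91 CPM, 3.14-fold lower (95% counting interval 2.23 to 4.50), the lowest ratio of the measured members. It lies on chromosome 19 at 53529145 to 53541809, its promoter carries the paired CArG boxes shown above, and AC137853.2 overlaps 22.1% of its exon length. Dusp4, another nuclear phosphatase, held 230 and 266 counts, a log2 ratio of 0.33 (interval 0.07 to 0.59). Dusp16, a JNK phosphatase, held 688 and 997, a log2 ratio of 0.66, while Dusp7, Dusp8 and Dusp9 stood at -0.01, -0.06 and 0.23 with intervals that span 0. The ERK phosphatase genes Dusp6 and Dusp5 stood past 2-fold on opposite sides.

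The atypical and other Dusp genes, most of which are not established MAP kinase phosphatases, showed little. Of 9 measured, 1 (11.1%) was lower, against 3.69% of all genes, and 0 higher, against 5.19%. That gene, Dusp14, a small phosphatase, held 191 and 70 counts, or 7.64 and 3.04 CPM, 2.51-fold lower (95% counting interval 1.90 to 3.35). It lies on chromosome 11 at 84048033 to 84069256. Dusp28, with 78 and 132 counts, stood at 0.88, Dusp3, with 2076 and 2676, at 0.49, and Dusp23 at 0.47. Dusp22, Dusp19, Dusp18, Dusp11 and Dusp12 lay between -0.14 and 0.17, all with intervals that span 0.

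Sprouty and Spred proteins restrain Ras and ERK signalling below growth factor receptors, and their genes are themselves ERK-responsive. Spry4 held 408 and 890 counts, or 16.3 and 38.7 CPM, a ratio of 2.37 (95% counting interval 2.11 to 2.67). Spred3 held 408 and 694 counts, a log2 ratio of 0.89 (interval 0.71 to 1.07). Spry1, the most counted of them over both libraries summed, held 2668 and 2844 counts, a log2 ratio of 0.21, and Spred2 1630 and 1677, a log2 ratio of 0.16. Spred1, with 2789 and 2556 counts, stood at -0.01. Spry2, in contrast to Spry4, held 1120 and 792 counts, a log2 ratio of -0.38 (interval -0.51 to -0.25).

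**Figure D4:**
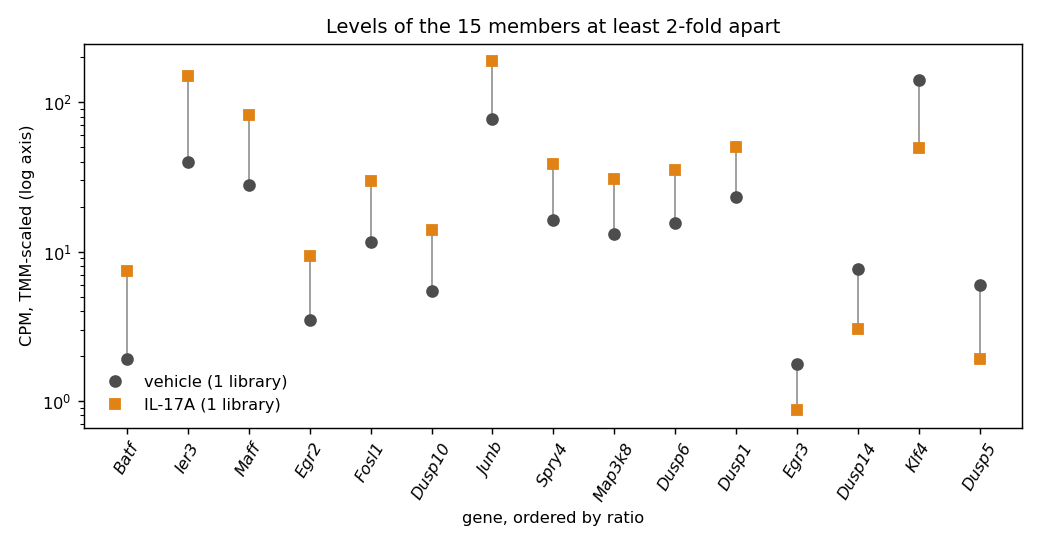
Level in CPM on a log axis (vertical) of each of the 15 members at least 2-fold apart (horizontal axis, ordered by ratio), as a circle for the vehicle library and a square for the IL-17A library. The first 11, from Batf to Dusp1, lie higher with IL-17A, and the last 4, from Egr3 to Dusp5, lower.

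Genes of the same pathways outside these families came from lists that were also drawn up with earlier results known. Of 41 measured kinases and GTPases of the MAP kinase cascades, 2-fold was passed upward by 3 (7.32%) and downward by 0, a share near the 5.19% of all genes. The median log2 ratio was 0.11. Map2k6, which activates p38, held 39 and 135 counts, a ratio of 3.76 (95% counting interval 2.62 to 5.52). Mapkapk2, the kinase below p38 that stabilises cytokine mRNAs, held 4558 and 9534 counts, a ratio of 2.27 (95% counting interval 2.19 to 2.36). Ksr1, a scaffold of the ERK cascade, held 1104 and 2270 counts, a ratio of 2.23, and Mapk12, a p38 kinase, stood at 0.95 on the log2 scale.

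Genes used as readouts of ERK activity, with feedback inhibitors at the receptor level, numbered 14. Above 2-fold stood 5 (35.7%), against 5.19% of all genes, and below it 1 (7.14%), against 3.69%. The median log2 ratio of the 14 was 0.49. Phlda1 held 265 and 1228 counts, a ratio of 5.04 (95% counting interval 4.41 to 5.77). Etv4, an Ets factor, held 510 and 1528 counts, a ratio of 3.26, and Errfi1, an inhibitor of the EGF receptor, 954 and 2656, a ratio of 3.03. Etv1 and Epha4, chosen once their values had been seen, had log2 ratios of 1.12 and 1.01, and Epha4 was inside the limit under total-count and upper-quartile scaling, which left 4 above. The lower gene was Ccnd1, which encodes cyclin D1, with 7029 and 1848 counts, a log2 ratio of -1.81. As among the phosphatases, genes read as ERK outputs stood on both sides.

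Of 23 other growth-factor-induced early genes measured, 3 (13.0%) passed 2-fold upward, against 5.19% of all genes, and 0 downward, against 3.69%. Their median log2 ratio was 0.46, and 20 were above 0, or 19 under total-count scaling. Ereg, which encodes the EGF receptor ligand epiregulin, held 87 and 715 counts, a ratio of 8.93 (95% counting interval 7.14 to 11.3). Phlda1 is also on this list, the kinase gene Pim1 held 1109 and 2158 counts, a ratio of 2.11, and Klf10 stood at 0.92 on the log2 scale. Of 8 cofactors of Srf and Egr proteins, Elk3, which binds beside Srf, held 2828 and 6122 counts, a ratio of 2.35. Myocd, the smooth-muscle coactivator of Srf, held 53 and 24 counts, 2.03-fold lower (95% counting interval 1.23 to 3.44). Nab1 and Elk1 stood at 0.77 and 0.34. None of 12 other bZIP factors reached 2-fold, as was true of 12332 of all 13534 measured genes. Nfe2l2, which encodes the partner of small Maf proteins called Nrf2, stood at 0.79, Crem at 0.71, Maf at -0.54 and Atf7 at -0.29.

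Of 11 textbook AP-1 target genes, 6 (54.5%) passed 2-fold upward, against 5.19% of all genes. Downward it was passed by 1 (9.09%), against 3.69%, which was Ccnd1, also on the list of ERK readouts. The median log2 ratio of the 11 was 1.75. Like the related lists above, this list was drawn up with earlier results of these data known, so its share describes the list only. The matrix metalloprotease genes led, with Mmp10, Mmp3, Mmp9 and Mmp13 at log2 ratios of 8.54, 6.90, 5.39 and 4.19. The Fos and Jun genes themselves lay between -0.54 and 1.37 on the same scale. Heat shock genes, which can respond to handling of cultures, were within 2-fold in 8 of 8 cases, as were 12332 of all 13534 measured genes. Hspa1a stood at -0.67, Hspa1b at -0.47, Hsph1 at 0.39 and Hspd1 at -0.29, all with intervals that exclude 0. A part of handling was not tested. The share of counts from mitochondrially encoded genes was 0.69% and 0.64%.

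**Figure D5:**
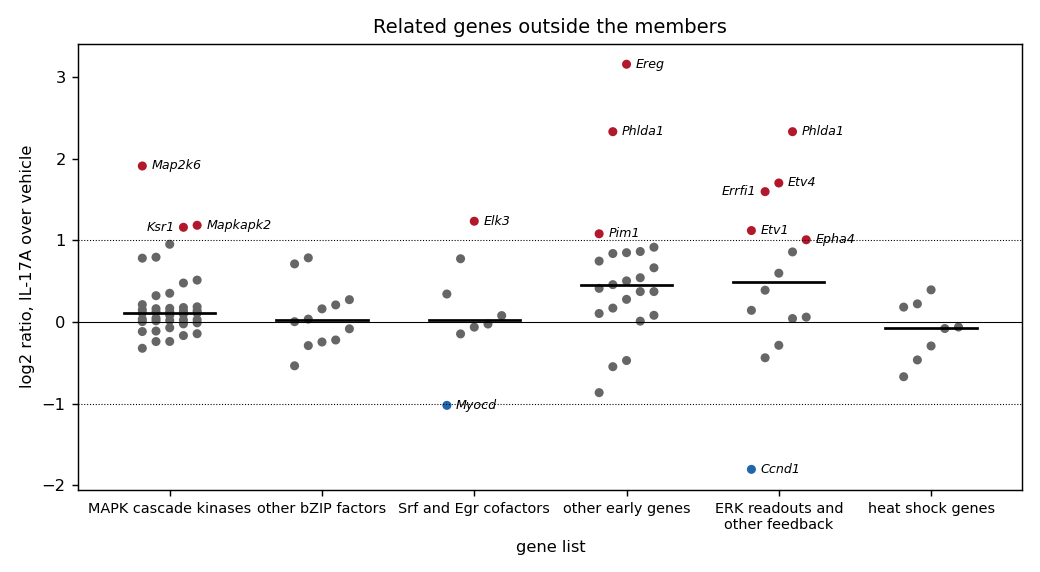
Log2 ratio of IL-17A over vehicle (vertical axis) for each measured gene of 6 lists of related genes (horizontal axis): MAP kinase cascade, other bZIP factors, Srf and Egr cofactors, other early genes, ERK readouts and heat shock genes. The AP-1 targets are not plotted. There was 1 library per group. Black lines are list medians, dotted lines mark 2-fold, and genes past it are coloured and named. Among the plotted genes, Ereg and Phlda1 stand highest and Ccnd1 lowest.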

How the data were processed

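The count table was deposited as raw counts per gene symbol, 1 column per library, with no normalization by the authors. Per the labels' protocols, total RNA was isolated by PureLink, and library preparation used a stranded mRNA kit from Illumina. STAR, featureCounts and mm10 are named in the submitters' processing notes, while the sources used here do not state versions, annotation or strand setting. TMM factors came from edgeR 4.0.16 (R 4.3.3). Ratios and intervals were computed in Python 3.11.15 with scipy 1.17.1, over all genes with at least 50 summed counts. The calculation was also run on simulated counts with counting error only. These hold no variation between cultures, so the run says nothing about it. With 1 library per group there are no residual degrees of freedom, so no test was run. A library at 0 was set to a floor of 3 counts. Since the reads carry no molecular identifiers, PCR copies count as separate reads, and intervals cover counting error only. Library totals were 24427027 and 23559416. Exon lengths and overlaps came from GENCODE's basic mouse set on GRCm38, gene positions from RefSeq on GRCm38.p6. All 67 symbols matched RefSeq, and 13 overlapped another gene's exons on the opposite strand.

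The genes and lists were chosen with earlier results of these data known. Every member past 2-fold was given with its values, the others with their log2 ratio or within the range of their group. Of each related list up to 4 genes of highest absolute ratio were given (others are marked as chosen after their values were seen). Of each marker list the most counted gene was given. Any other named marker fell outside this rule and was chosen with its values known. Alternatives were other scalings, minimums, fold limits and a prior count.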

Additional observations from a re-analysis of the deposited data

How the results depend on the processing

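No paired analysis was possible because each group holds 1 library. The counts of 11 members higher and 4 lower were the same under total-count, upper-quartile and median-of-ratios scaling. A minimum of 200 summed counts left 2 lower members, as did 50 counts in each library, since Dusp5 and Egr3 then drop out. At 1.5-fold there were 18 members higher (29.5%, against 10.1% of all genes). At 3-fold there were 2 higher (3.28%, against 2.51%) and 1 lower (1.64%, against 1.62%), so the difference from all genes was small there. Over all genes, a minimum of 10 summed counts gave 1090 higher and 955 lower, no minimum 1347 and 1148, a 1.5-fold limit 1364 and 1117, and a 3-fold limit 340 and 219. A minimum of 200 left 275 lower and 50 counts in each library 264. A prior count of 2 left 3 lower members, without Egr3. Depth limits Egr3, Nr4a3, Fosb and Klf8 most, whose intervals on the log2 scale are the widest of the members. Differences between cultures were not measured.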

Other observations

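Transcription factors of the Ets family, a set chosen after the values were seen, went both ways. Of 19 measured, 4 were at least 2-fold higher, against 5.19% of all genes, and 1 lower, against 3.69%. Of those higher, Etv1, Etv4 and Elk3 were already given above, and they reached the minimum count in each library alone. Ehf reached it only with IL-17A, and Erg, the lower gene, only with vehicle. Where each library must reach the minimum, Ehf and Erg drop out, and no lower gene is left. Ehf, known as an epithelial factor, held 4 counts with vehicle and 84 with IL-17A, a ratio of 22.8 (95% counting interval 8.59 to 85.7). Beside it, the 6 keratinocyte markers summed to 2.48 and 3.0 CPM, with Krt14 at 10 and 26 counts and Epcam at 2 and 3. Krt5, at 14 and 8 counts, and Trp63, at 8 and 5, went the other way. Erg, known from endothelium, held 53 and 9 counts, a log2 ratio of -2.44, while the 5 endothelial markers summed to 5.40 and 5.21 CPM. Of these, Tek held 49 and 18 counts and Kdr 31 and 10, Cdh5 33 and 47 and Pecam1 11 and 33. The part of such cells in these ratios was not tested. Ets2 stood at 0.77 and Ets1 at 0.45. Among other kinases, Map4k4, which acts above JNK, held 8366 and 14874 counts, a log2 ratio of 0.95. It was the highest of 5 Map4k genes, a set also chosen after the values were seen. The other 4 were below 0, and the median of the 5 was -0.15. Of 10 other Klf and Sp factors measured, likewise chosen, none reached 2-fold, as was true of 12332 of all 13534 measured genes. They lay between -0.44 and 0.92.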
